A study of Mus musculus with 6 samples.

Results

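The messenger RNA levels of 9 genes for myoblast fusion and cell adhesion were examined in differentiated mouse muscle cultures with and without a muscle knockout of Sfpq. The genes were taken by name: the fusogens Mymk and Mymx, the cadherins Cdh15, Cdh2, Cdh11 and Cdh13, and the immunoglobulin-type adhesion molecules Ncam1, Vcam1 and Jam3. They are 9 of 34656 genes, and all 9 were among the 12461 genes that could be tested. Sfpq encodes a nuclear RNA-binding protein of transcription and splicing, and the series title asks how its loss affects transcripts of long genes in skeletal muscle.

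The 3 knockout libraries came from primary myoblasts of SfpqSM-KO mice and the 3 control libraries from primary myoblasts of control mice, in both cases 1-month-old males. All cultures were expanded with basic fibroblast growth factor and then kept for 4 days in 2% horse serum, a medium in which myoblasts stop dividing and fuse. The labels used here do not state the alleles, the driver of the deletion or the genotype of the controls. The series gives 3 mice per genotype, but no label ties a library to its own mouse or culture. The p-values therefore measure only the spread between these libraries, which may be partly technical. Sfpq itself, the check of the labels, stood at 17.2 ± 2.78 TPM in knockout libraries and 53.01 ± 6.504 TPM in control (SD, n = 3 each); the highest knockout library was under the lowest control library. TPM, which states transcripts per 1000000 transcripts of a library, is scaled to transcript length, so levels of different genes can be set side by side, and it keeps no read depth.

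Skeletal muscle fibres form when mononucleated myoblasts align, adhere and merge their membranes. Mymk (myomaker), a multipass membrane protein, and Mymx (also called myomerger or minion), a micropeptide, carry out the merger. Cadherins hold neighbouring cells together through calcium-dependent contacts and are anchored to actin by catenins, while adhesion molecules of the immunoglobulin family bind partners of their own kind, related family members or integrins.

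The cultures were differentiated muscle in both genotypes. The 7 myotube markers examined summed to between 71621 and 75236 TPM in knockout libraries and between 60750 and 66748 TPM in control, led by the skeletal actin Acta1 and the fast myosin light chain Mylpf, both higher in knockout without overlap (28.6% of the 7, against 4.27% of all tested genes). The fast troponin Tnnt3 (6295 ± 478 TPM in knockout libraries and 7602 ± 1741 TPM in control), Ckm and Myh8 had lower means in knockout, with overlapping groups. All 5 endothelial, all 4 Schwann cell and all 4 adipocyte markers lay under 1 TPM in every library. Macrophage markers summed to between 1.15 and 2.13 TPM in knockout libraries and between 1.15 and 2.05 TPM in control, with Ptprc and Adgre1 at 0 throughout. Of 6 fibroblast markers, Lum was at or near 0 and Pdgfra at 0.53 to 0.71 TPM in knockout libraries and 0.72 to 1.41 TPM in control libraries. The list summed to between 169 and 221 TPM in knockout libraries and between 204 and 295 TPM in control, most of it Col3a1. Its member Col1a1 did not overlap, at 11.1 to 24.9 TPM in knockout libraries and 30.3 to 75.9 TPM in control libraries, while Ly6a averaged 12.0 ± 4.26 TPM in knockout libraries and 8.78 ± 2.59 TPM in control. Smooth muscle and pericyte markers, mostly Cspg4, summed to 11.2 to 20.3 TPM in knockout and 5.46 to 16.3 TPM in control. Markers of satellite cells and myoblasts, mostly Myod1, summed to 680.4 to 756 TPM in knockout and 434 to 787 TPM in control. Myod1 had the higher mean in knockout (log2 difference 0.42), while those of Myf5 (−0.68), Pax7 (−0.38) and Sdc4 (−0.28) were lower, with overlapping groups in all 4 and a median of −0.33. In bulk RNA, fewer cells of a type cannot be told apart from less RNA per cell.

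Single control libraries stood apart across most of the 9 genes. Control replicate 2 was the highest control library for 8 of the 9 genes, and control replicate 1 was the lowest for 6 of them. In knockout no library led in that way: replicates 1 and 2 were each highest for 4 genes and replicate 3 for 1. These counts were not taken over all tested genes, so the pattern is not shown to be particular to the 9. The median-of-ratios size factors of the control libraries were 0.980, 1.07 and 1.03. For each of the 9 genes the difference between genotypes is therefore also given with single libraries left out.

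**Figure D1:**
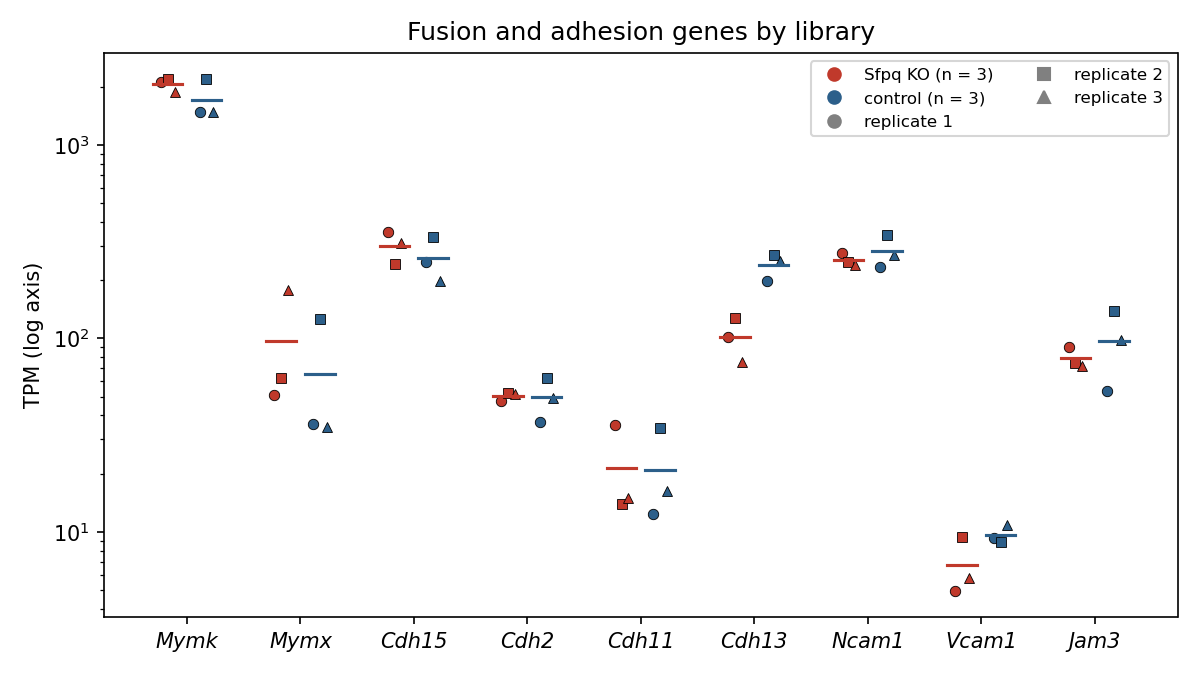
TPM on a log axis for each of the 9 genes, with Sfpq knockout libraries (red) left of control libraries (blue), point shapes for replicates and bars for group means. Cdh13 is the gene whose 3 knockout points, at 75.9 to 128 TPM, lie below its 3 control points, at 199 to 269 TPM.

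The main difference among the 9 genes was in Cdh13, and the other 8 had overlapping groups. Cdh13 averaged 102 ± 26.0 TPM in knockout libraries and 239 ± 36.4 TPM in control. The fusogens and the muscle cadherin Cdh15 had higher means in knockout, and Vcam1, Jam3 and Ncam1 lower ones, none of them beyond the spread between libraries. Tests used limma on log2(TPM + 1) with Benjamini-Hochberg adjustment over all 12461 genes, and 0 of the 9 passed an adjusted p of 0.05. Over all genes limma also called 0 (0.0% in each direction). Sfpq itself had a limma adjusted p of 0.0531, so the test did not call even the knocked-out gene. A gene that did not pass is therefore not shown to be unchanged. At an unadjusted p under 0.05 it gave 334 genes higher (2.68%) and 1199 lower (9.62%) in knockout, a split that became 719 and 710 after median-of-ratios scaling. Of the 9 genes, 1 was lower at that level and 0 higher. The groups did not overlap for 1 of the 9 genes, lower in knockout, against 15.3% of all tested genes, and for 0 of the 9 in the higher direction, against 4.27%. The count over the 9 genes is thus close to the background, and it is the size for Cdh13 that lies outside the bulk of genes. The median log2 difference was 0.03 over the 9 genes and −0.07 over all tested genes. Of all tested genes, 4423 had higher and 8038 lower means on the log2 scale in knockout, the split against which the lists below are read.

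**Figure D2:**
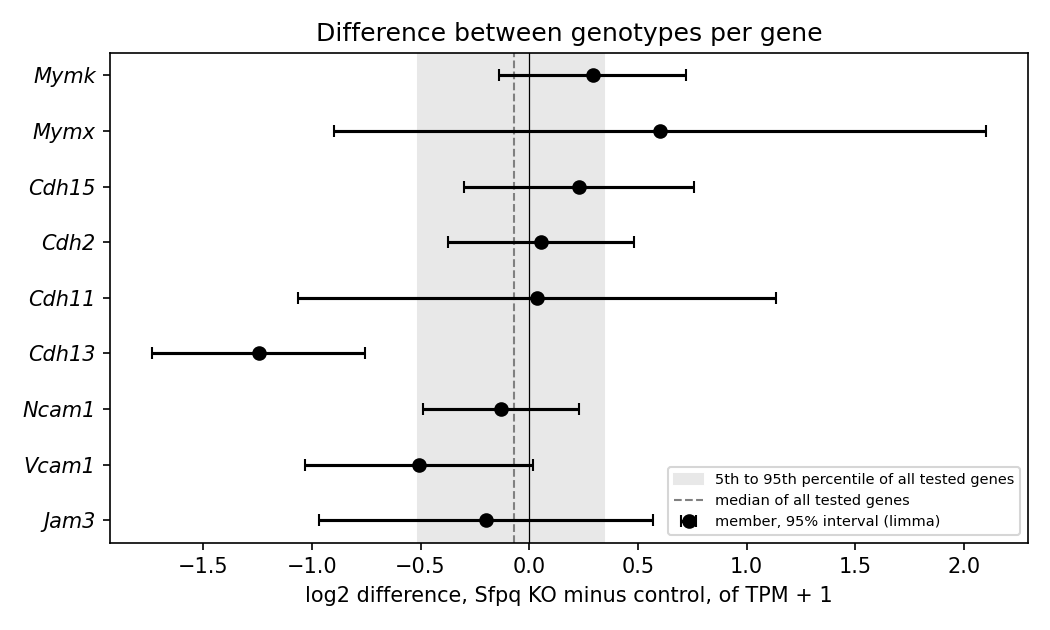
The log2 difference of TPM + 1, Sfpq knockout minus control, per gene, with the 95% interval of the limma fit for that gene alone. The grey band runs from the 5th to the 95th percentile of all tested genes, −0.51 to 0.35, and the dashed line marks their median, −0.07; the interval of Cdh13, −1.74 to −0.75, lies outside the band.

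Mymk was the most abundant of the 9 genes in every library. It stood at 2108, 2197 and 1876 TPM in the 3 knockout libraries and at 1469, 2189 and 1470 TPM in the 3 control libraries. Knockout levels all lay near that of control replicate 2, above the other two control libraries. Its mean of 2060 ± 166 TPM in knockout exceeded that of 99.6% of tested genes, and its mean of 1709 ± 416 TPM in control that of 99.5%. The log2 difference was 0.29 (SE 0.18, 95% interval −0.14 to 0.72, limma adjusted p = 0.550), and it ran from 0.20 to 0.48 with single libraries left out. The gene is compact, at 10.5 kb on chromosome 2 (27061636 to 27072161 in GRCm38, minus strand), with 5 exons and no overlapping annotated gene.

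Mymx, the partner of Mymk at the fusing membrane, was the least reproducible of the 9 genes. It stood at 51.1, 62.3 and 177 TPM in knockout, against 36.04, 125 and 34.9 TPM in control. The high library in each group, knockout replicate 3 and control replicate 2, was more than 2 times as high as the other libraries of that group. The coefficient of variation was 71.97% in knockout and 79.3% in control, against 8.04% and 24.3% for Mymk. The log2 difference of 0.60 (SE 0.63, 95% interval −0.90 to 2.10, limma adjusted p = 0.725) shrank to 0.06 without knockout replicate 3 and grew to 1.198 without control replicate 2. Mymx spans 1.24 kb on chromosome 17 (45600961 to 45602196, minus strand) in 2 exons, with a coding sequence of 84 codons, and overlaps no annotated gene.

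The balance of the fusogens followed Mymx. Mymk transcripts outnumbered those of Mymx by 41.2, 35.3 and 10.6 times in knockout and by 40.8, 17.5 and 42.1 times in control. The low ratios were those of knockout replicate 3 and control replicate 2, where Mymx was high. The mean log2 ratio was 4.64 ± 1.07 in knockout and 4.96 ± 0.72 in control (SD, n = 3 each), and a 2-sided exact permutation test across all 6 libraries returned p = 0.6, where 3 against 3 cannot give less than 0.1. Ratios of 6 gene pairs were tested in this family, and with Benjamini-Hochberg adjustment over them each p was 0.8.

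Cdh15, M-cadherin, is the cadherin typical of myoblasts and satellite cells. It was at 352, 241 and 310.0 TPM in knockout libraries and at 247, 335 and 197 TPM in control. The groups interleaved, and the lowest and the highest library belonged to different genotypes. The log2 difference was 0.23 (SE 0.22, 95% interval −0.30 to 0.76, limma adjusted p = 0.703) and ran from 0.05 without control replicate 3 to 0.43 without control replicate 2. Cdh15 lies on chromosome 8 (122848374 to 122867397, plus strand, 19.0 kb), and the annotated protein-coding gene Gm20388 overlaps it in the same orientation, so its values may include reads of that gene.

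A promoter window of 250 bases before to 50 after the transcription start was at hand in the RefSeq table of GRCm38.p6 for 1 of the 9 genes, Cdh15, at chr8:122848124-122848423 on the plus strand. It is shown because E-boxes, the hexamers CANNTG to which MyoD-family factors bind, are the usual elements of muscle promoters. Capitals mark each CANNTG, which reads the same on both strands as a pattern.
Cdh15: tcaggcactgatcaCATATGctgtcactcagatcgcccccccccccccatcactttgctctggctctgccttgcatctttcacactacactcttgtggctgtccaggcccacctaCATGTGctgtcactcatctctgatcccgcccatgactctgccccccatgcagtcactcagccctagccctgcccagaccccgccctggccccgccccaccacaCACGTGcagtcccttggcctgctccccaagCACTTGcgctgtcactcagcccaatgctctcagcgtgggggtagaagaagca
The window holds 4 matches to CANNTG. Of 32851 windows of the same length, 72.3% hold at least 1 and 6.49% hold 4 or more. The subset CAGCTG, itself a CANNTG, has 0 matches here and is in 16.3% of windows.

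Cdh2, N-cadherin, which myoblasts share with nerve and heart cells, varied least among the 9 genes in the knockout libraries. It stood at 47.2, 52.1 and 51.7 TPM in knockout libraries and at 37.1, 62.1 and 49.2 TPM in control, with all knockout libraries inside the control range. The means were 50.3 ± 2.75 TPM in knockout libraries and 49.5 ± 12.5 TPM in control. The log2 difference was 0.05 (SE 0.18, 95% interval −0.37 to 0.48, limma adjusted p = 0.922), and it was −0.13 without control replicate 1. The ratio of Cdh15 to Cdh2 was 7.47, 4.62 and 5.99 in knockout and 6.66, 5.40 and 4.00 in control (log2 difference 0.18, exact permutation p = 0.6, n = 3 each). N-cadherin is encoded over 220 kb of chromosome 18 (16588877 to 16809246, minus strand).

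Cdh11, a cadherin typical of mesenchymal cells, split the libraries in a way that ignored genotype. It was at 35.6, 14.0 and 14.9 TPM in knockout libraries and at 12.3, 34.3 and 16.2 TPM in control. Knockout replicate 1 and control replicate 2 were high, and the other 4 libraries lay close together. Over all tested genes, the deviations of those high libraries from their group means had a correlation of 0.41. The part of that likeness in the Cdh11 values was not tested. The summed fibroblast markers, most of them Col3a1, stood at 178, 221 and 169 TPM in the knockout libraries, and at 204, 295 and 295 TPM in the control libraries, and their part in the Cdh11 values was not tested. The log2 difference was 0.03 (SE 0.46, 95% interval −1.07 to 1.13, limma adjusted p = 0.982), so changes within that range are not excluded. It changed sign without knockout replicate 1 (−0.38), control replicate 1 (−0.26) or control replicate 3 (−0.08). Cdh15 exceeded Cdh11 by 9.90, 17.2 and 20.8 times in knockout and by 20.04, 9.78 and 12.1 times in control (exact permutation p = 0.7, n = 3 each). Cdh11 spans 153 kb of chromosome 8 (102632095 to 102785493, minus strand).

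Cdh13, T-cadherin, differs from the others in having no cytoplasmic tail: a lipid anchor holds it in the membrane, it cannot bind catenins, and it is a receptor for the fat hormone adiponectin in muscle and vessels. It stood at 102, 128 and 75.9 TPM in knockout, against 199, 269 and 249.99 TPM in control. The highest knockout library lay well under the lowest control library. The mean was 2.35 times as high in control, and the log2 difference was −1.24 (SE 0.21, 95% interval −1.74 to −0.75, unadjusted p = 0.000599 in limma). After adjustment over all genes the limma p was 0.126, so the difference did not pass. With single libraries left out it ran from −1.42 to −1.05, and over all 15 alternatives the adjusted p ran from 0.103 to 0.456. A lower log2 difference was found for 42 of the 12461 tested genes (0.337%), Sfpq included. Of the other cell types known for T-cadherin, endothelial markers were under 1 TPM throughout. Of the 4 smooth muscle and pericyte markers, Cspg4 averaged 13.3 ± 4.69 TPM in knockout libraries and 7.89 ± 4.19 TPM in control, Pdgfrb 1.85 ± 0.30 TPM in knockout libraries and 3.42 ± 1.38 TPM in control, and Rgs5 and Myh11 stayed under 1 TPM. Of the 6 fibroblast markers, 3 were tested, and Col1a1 alone of these was lower in knockout without overlap (33.3%, against 15.3% of all tested genes). Pdgfra, too low to be tested, was also lower without overlap. Col3a1 averaged 160.2 ± 24.7 TPM in knockout libraries and 205 ± 43.0 TPM in control, with overlap. Ly6a had the higher mean in knockout, at 12.0 TPM against 8.78 TPM in control. Dcn overlapped, at 0.44 to 0.71 TPM in knockout libraries and 0.49 to 4.39 TPM in control, and Lum was at or near 0. The part of these markers in the Cdh13 values was not tested. In percentile of expression, Cdh13 exceeded 88.5% of tested genes in knockout and 95.1% in control.

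Cdh13 ranked 4 of 9 by mean level in both genotypes, and the order differed only by swaps of Cdh15 with Ncam1 and of Mymx with Jam3, pairs whose ranges overlapped. By mean level the order in control was Mymk, Ncam1, Cdh15, Cdh13, Jam3, Mymx, Cdh2, Cdh11 and Vcam1. The ranges of Ncam1, Cdh15 and Cdh13 overlapped there as neighbours, as did those of Jam3, Mymx and Cdh2. In knockout the order was Mymk, Cdh15, Ncam1, Cdh13, Mymx, Jam3, Cdh2, Cdh11 and Vcam1, and Cdh13 no longer reached the range of Ncam1 but overlapped that of Mymx. Cdh15 and Ncam1 overlapped in both genotypes.

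Within the pool of the 4 cadherins, Cdh13 transcripts made up 19.0%, 29.4% and 16.8% in knockout and 40.1%, 38.4% and 48.8% in control. Cdh15 made up 65.6%, 55.4% and 68.5% in knockout and 49.9%, 47.8% and 38.4% in control. Neither share overlapped between the groups. As shares of 1 pool they move against each other, and the level of Cdh15 itself did overlap. The pool held 475 ± 54.8 TPM in knockout libraries and 570 ± 114 TPM in control, with overlapping ranges.

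**Figure D3:**
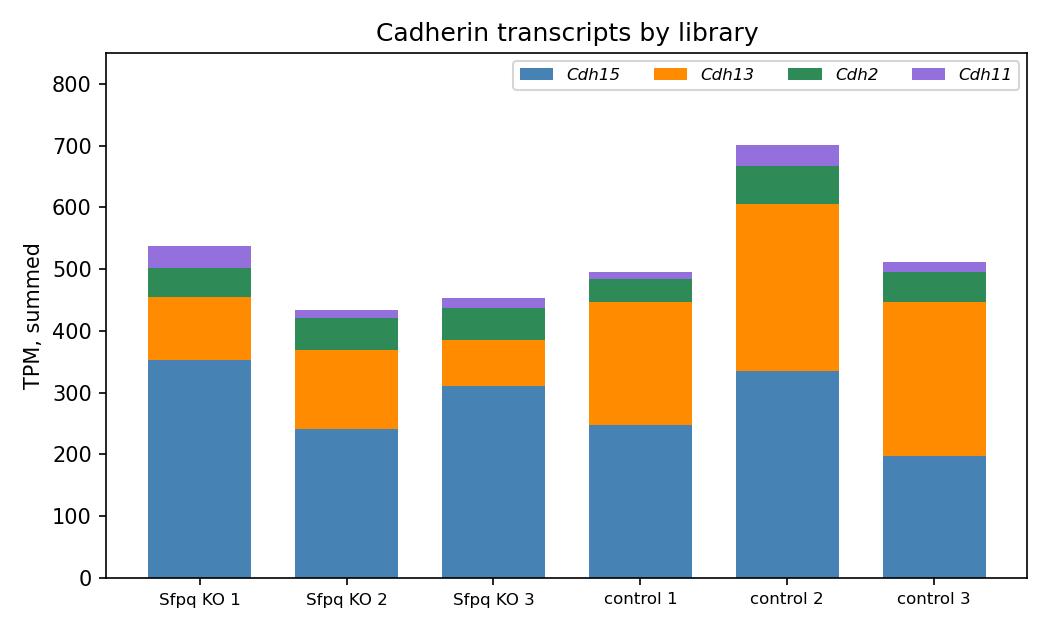
Summed TPM of the cadherins Cdh15, Cdh13, Cdh2 and Cdh11 in each library, knockout libraries on the left and control libraries on the right. The Cdh13 segment is 75.9 to 128 TPM in knockout libraries and 199 to 269 TPM in control, while the Cdh15 segment overlaps between the genotypes.

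Cdh13 is also by far the longest of the 9 genes. It spans 1185 kb of chromosome 8 (118140017 to 119324929, plus strand) in 14 exons, with a transcript of 3785 bases, and overlaps 5 annotated genes, none of them protein-coding. Ncam1 spans 297 kb, Cdh2 220 kb and Cdh11 153 kb, with log2 differences of −0.13, 0.05 and 0.03, while the 5 genes of 58.0 kb or less ranged from −0.51 to 0.60. Among the 85 tested genes of 500 kb or more, 41.2% had each knockout library below each control library, against 15.3% of all tested genes, and the median log2 difference was −0.32, against −0.07 over all tested genes. The part of gene length in the Cdh13 values was not tested.

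Ncam1, the neural cell adhesion molecule, is strongly made by fusing myoblasts and can carry polysialic acid, which weakens adhesion. It was at 277, 247 and 239.75 TPM in knockout libraries and at 233, 343 and 269 TPM in control, with the knockout libraries inside the control range. The means were 255 ± 19.8 and 282 ± 56.0 TPM in knockout libraries and control, and the log2 difference was −0.13 (SE 0.15, 95% interval −0.49 to 0.23, limma adjusted p = 0.751). Without control replicate 2 it was 0.02. The polysialyltransferase St8sia2 was at 55.9, 47.4 and 55.5 TPM in knockout libraries and varied more in control, at 19.0, 73.9 and 33.1 TPM. St8sia4, the other enzyme of that kind, was at 1.23 to 2.74 TPM in knockout libraries and 1.32 to 2.86 TPM in control. Ncam1 lies on chromosome 9 (49502129 to 49799393, minus strand). It has 1 value per library here, so its splice forms cannot be told apart.

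Vcam1, the ligand of the integrin of the alpha4 (Itga4) and beta1 (Itgb1) chains, had the lowest level of the 9. It stood at 4.93, 9.42 and 5.78 TPM in knockout, against 9.25, 8.85 and 10.9 TPM in control. Knockout replicates 1 and 3 were below all control libraries, and replicate 2 lay among them. The log2 difference was −0.51 (SE 0.22, 95% interval −1.03 to 0.02, limma adjusted p = 0.417), and it ran from −0.75 without knockout replicate 2 to −0.34 without knockout replicate 1. A pseudocount of 5 also brought it to −0.34. Its receptor chain Itga4 was scarce and spread widely, at 4.49, 2.56 and 0.70 TPM in knockout libraries and 0.71, 2.82 and 1.36 TPM in control, while Itgb1 stood at 358 ± 35.1 and 325 ± 50.6 TPM in knockout libraries and control. The ratio of Vcam1 to Itga4 was 1.10, 3.68 and 8.24 in knockout and 13.05, 3.14 and 8.05 in control (log2 difference −1.10, exact permutation p = 0.5, n = 3 each), a difference that ran from −1.78 without knockout replicate 3 to −0.33 without knockout replicate 1. Vcam1 lies on chromosome 3 (116110020 to 116129688, minus strand, 19.7 kb).

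Jam3, junctional adhesion molecule C, binds its relative Jam2, and in zebrafish the pair is needed for myoblast fusion. Jam3 was at 90.0, 74.4 and 71.9 TPM in knockout libraries and at 53.5, 139 and 98.4 TPM in control. The control libraries spanned the whole knockout range on both sides. The log2 difference was −0.20 (SE 0.32, 95% interval −0.97 to 0.57, limma adjusted p = 0.828), and it was 0.11 without control replicate 2. Jam2 leaned the other way, at 68.5, 35.9 and 55.7 TPM in knockout libraries and 27.0, 55.8 and 30.4 TPM in control. Jam3 exceeded Jam2 by 1.31, 2.08 and 1.29 times in knockout and by 1.98, 2.49 and 3.23 times in control. Knockout ratios were at the low end, with knockout replicate 2 above the lowest control library (log2 difference −0.73, exact permutation p = 0.2, adjusted p over the 6 ratios 0.8, n = 3 each), and the difference ran from −0.95 to −0.55 with single libraries left out. Jam3 lies on chromosome 9 (27097384 to 27155421, minus strand, 58.0 kb).

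Across the 6 libraries, the genes most like each other in their changes were Cdh2 and Ncam1. Likeness was measured as the Euclidean distance between the log2(TPM + 1) profiles, each centred on its own mean, and was 0.38 for that pair. Mymk was nearest to Cdh2 (0.46), Cdh15 to Mymk (0.55), Jam3 to Ncam1 (0.62) and Cdh11 to Jam3 (0.93). The gene without a close match was above all Mymx, whose nearest gene was Cdh15 (1.77). Cdh13 came next, with Vcam1 as its nearest gene (1.08) and Mymx as its farthest (3.16), and Vcam1 was itself nearest to Ncam1 (0.97). Mymx was farthest from 6 of the other genes. With 6 libraries these distances describe the profiles and carry no test.

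**Figure D4:**
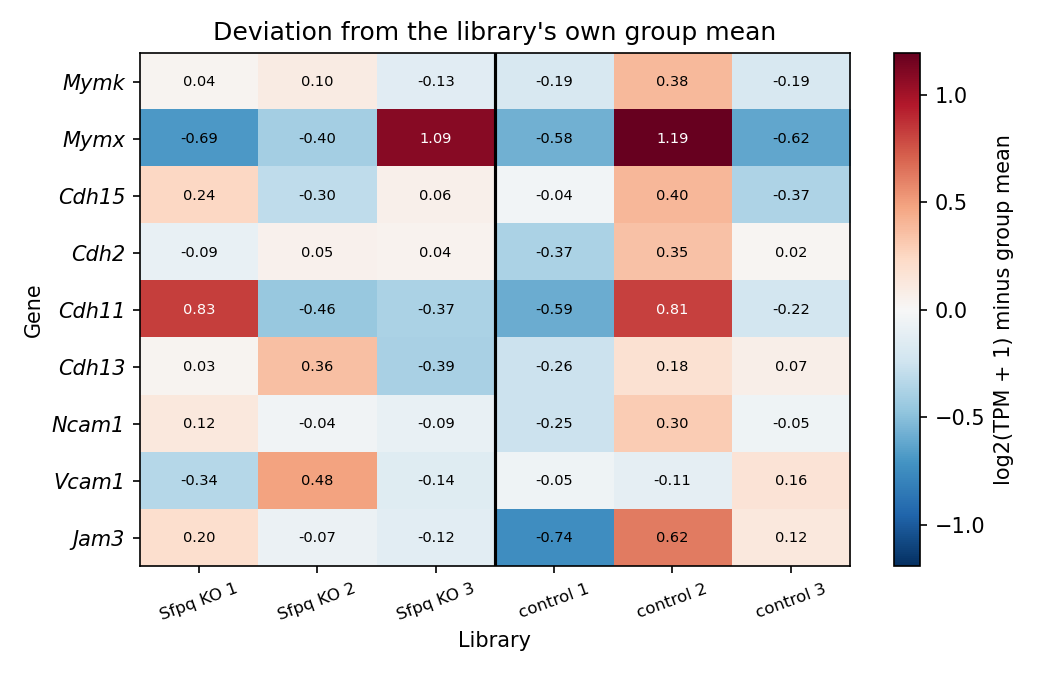
Log2(TPM + 1) of each gene in each library minus the mean of that library's own genotype, so that the difference between genotypes is removed, knockout libraries on the left. Control replicate 2 is above its group mean for 8 of the 9 genes, and the widest deviations are those of Mymx, from −0.69 to 1.19.

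The wider fusion machinery did not move as a block. Of 40 listed genes with values, 33 were tested, of which 14 had higher and 19 lower means on the log2 scale in knockout, with a median log2 difference of −0.05. At an unadjusted p under 0.05, 1 was higher and 3 were lower, near the 2.68% and 9.62% of all tested genes, and 0 passed after adjustment. Groups did not overlap for 1 higher (3.03%) and 4 lower (12.1%), close to the 4.27% and 15.3% of all tested genes. Nfatc2, a transcription factor of myotube growth, stood at 7.65 ± 2.57 TPM in knockout libraries and 3.80 ± 0.63 TPM in control (log2 difference 0.82, limma adjusted p = 0.264). Adam12, a metalloprotease of fusing myoblasts, stood at 3.31 ± 1.36 TPM in knockout libraries and 6.67 ± 1.59 TPM in control (−0.86, limma adjusted p = 0.301). Neo1, a netrin receptor, was at 27.7 ± 2.14 TPM in knockout libraries and 36.8 ± 5.63 TPM in control (−0.39, limma adjusted p = 0.329). The other tested genes without overlap, both lower, were Gas1 (9.68 ± 3.19 and 14.6 ± 2.11 TPM in knockout libraries and control) and the GTPase Rhoa (153 ± 8.36 and 176 ± 12.1 TPM). Stab2, too low to be tested, was also lower without overlap, at 0.37 ± 0.24 TPM in knockout libraries and 1.54 ± 0.61 TPM in control.

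The other cadherins examined, beyond the 4 above, were scarce. Of these 19, 14 lay under 1 TPM in every library and 5 were tested. Highest by mean in both genotypes was Cdh6, at 4.94, 1.89 and 2.15 TPM in knockout libraries and 0.31, 5.20 and 2.61 TPM in control. Cdh1, E-cadherin, stood at 1.48, 1.40 and 1.05 TPM in knockout, against 0.20, 0.56 and 0.59 TPM in control. The groups did not overlap, at a level near the filter of 1 TPM that the gene passed through its knockout libraries (log2 difference 0.68, limma adjusted p = 0.248). The 4 epithelial markers, Cdh1 among them, summed to between 13.7 and 41.6 TPM in knockout libraries and between 5.54 and 10.7 TPM in control, most of it Krt18, with Epcam under 0.1 TPM throughout. Their part in the Cdh1 values was not tested. Cdh23 showed the reverse order, at 0.87 ± 0.04 TPM in knockout libraries and 1.49 ± 0.37 TPM in control (−0.40, limma adjusted p = 0.374), and had passed the filter through its control libraries. Cdh24 was at 1.46 ± 0.34 TPM in knockout libraries and 1.26 ± 0.18 TPM in control. For Cdh18 the means were 1.13 ± 0.63 TPM in knockout libraries and 0.95 ± 0.67 TPM in control.

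The catenins and junction adaptors, which link cadherins to actin, had overlapping groups throughout. Of 13 tested genes, 11 had higher and 2 lower means on the log2 scale in knockout, with a median of 0.03. At an unadjusted p under 0.05 there were 0, against 2.68% higher and 9.62% lower of all tested genes, and 0 were without overlap, against 4.27% higher and 15.3% lower. The count of higher members rests on small values, and without control replicate 1 the median was −0.08. Beta-catenin, Ctnnb1, was at 221 ± 16.997 TPM in knockout libraries and 222 ± 39.8 TPM in control. Jup, plakoglobin, was nearest to the threshold, at 244 ± 39.1 TPM in knockout libraries and 182 ± 50.1 TPM in control (0.45, limma adjusted p = 0.450). Arvcf was at 12.4 ± 1.79 and 9.30 ± 2.60 TPM, and Pkp4 at 26.2 ± 5.997 and 34.1 ± 6.63 TPM, in knockout and control.

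Among other adhesion molecules of the immunoglobulin family, those nearest to the threshold were lower in knockout. Of 25 genes with values, 12 were tested, 4 with higher and 8 with lower means on the log2 scale, and the median was −0.18. That split is near the 4423 higher and 8038 lower of all tested genes. Groups did not overlap for 3 of the 12 (25%), all lower, against 15.3% of all genes. These were also the 3 at an unadjusted p under 0.05, a level that 9.62% of all tested genes reached in the lower direction. They were the nectin-like molecules Cadm1 and Cadm4 and the melanoma cell adhesion molecule Mcam. Cadm1 stood at 5.79, 3.45 and 5.19 TPM in knockout libraries and at 9.47, 11.8 and 9.93 TPM in control (log2 difference −0.99, SE 0.18, limma adjusted p = 0.153). Cadm4 was at 12.0, 18.9 and 22.9 TPM in knockout libraries and at 33.3, 34.0 and 71.9 TPM in control (−1.28, SE 0.35, limma adjusted p = 0.266). For Mcam the values were 11.3, 7.44 and 10.3 TPM in knockout libraries and 18.4, 15.6 and 13.1 TPM in control (−0.66, SE 0.18, limma adjusted p = 0.269). None passed after adjustment, and the abundant Bcam (447 to 836 TPM in knockout libraries and 384 to 695 TPM in control) overlapped widely.

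Receptors, ligands and modifiers of the 9 genes had a share without overlap near that of all genes. Of 13 tested, 6 had higher and 7 lower means on the log2 scale, the median was −0.02, and groups did not overlap for 2 (15.4%), both lower, against 15.3% of all tested genes. These were the adiponectin receptor Adipor2, at 78.96 ± 5.06 TPM in knockout libraries and 92.6 ± 6.12 TPM in control (−0.23, limma adjusted p = 0.384), and the shedding protease Adam17, at 25.6 ± 1.44 TPM in knockout libraries and 29.1 ± 1.76 TPM in control (−0.18, limma adjusted p = 0.473). Adipor1 was close to level, at 133 ± 2.68 TPM in knockout libraries and 131 ± 5.63 TPM in control, and adiponectin itself, Adipoq, stayed at or under 0.07 TPM in all libraries. Fgfr1, a partner of both N-cadherin and Ncam1 in signalling, was at 90.9 ± 8.05 TPM in knockout libraries and 101 ± 9.15 TPM in control.

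**Figure D5:**
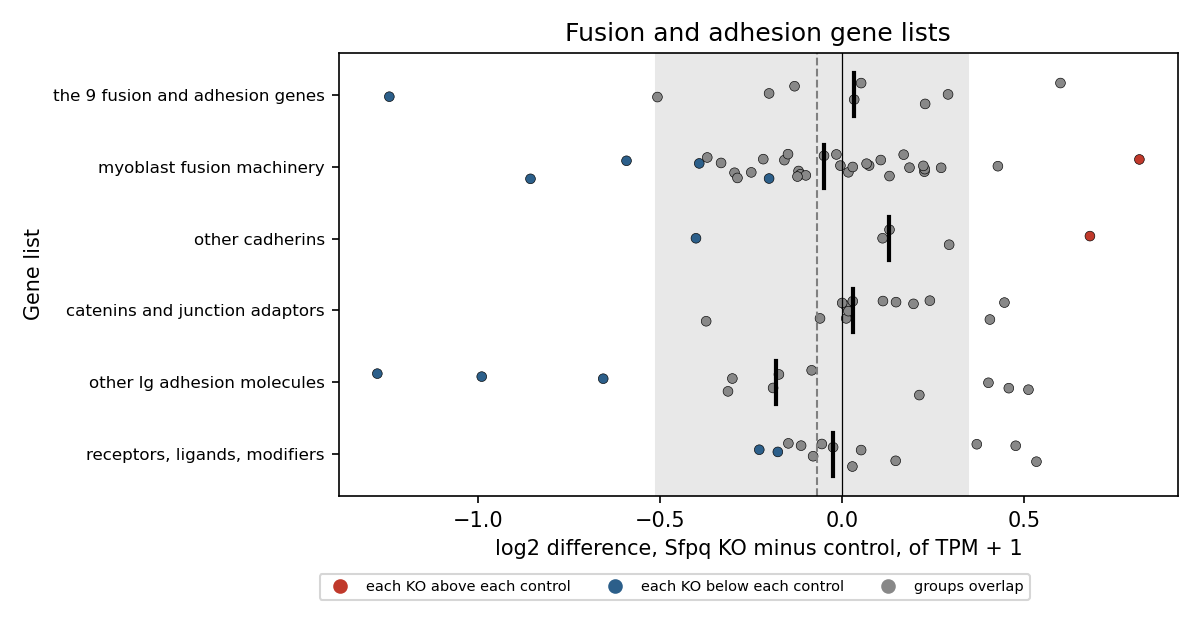
Log2 difference of TPM + 1, Sfpq knockout minus control, for each tested gene of the 9 and of 5 related lists, with list medians as black bars; red and blue points are genes whose groups do not overlap. The grey band is the 5th to 95th percentile of all tested genes and the dashed line their median; Cdh13, Cadm4 and Cadm1 lie farthest to the left.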

How the data were processed

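PolyA RNA of 3 Sfpq knockout and 3 control cultures, grouped by their titles, was made into Ion Total RNA-Seq libraries and read on an Ion Proton machine, per the labels. The authors deposited TPM, with 1 value per RefSeq accession and a sum of 1000000 per library. STAR 2.4.1d and mm10 are named in the submitters' processing notes; the counting tool, annotation release and strand setting (not given in the sources used here) leave overlapping genes uncertain. TPM keeps no depth, so no counting intervals are given, and 12216 to 12484 genes per library reached 1 TPM.

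Of 34671 accessions, 30822 were named through a RefSeq table of GRCm38.p6 and 103 through GENCODE, and TPM was summed per symbol to 34656 genes. Each of the 9 genes has 1 accession in the files, so the planned test of single accessions coincides with the gene test. Coordinates are from the RefSeq table, and exons, strands and overlaps from GENCODE M21.

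Genes that reached 1 TPM in 3 or more libraries entered a test in limma 3.58.1 (R 4.3.3) of log2(TPM + 1) (trend, no block, 2-sided, Benjamini-Hochberg at 0.05), a scale that understates the change of low genes. The script was tested on simulated data. Alternatives covered the pseudocount, filter, scaling, moderation, a replicate block and each library left out. The 9 genes and the lists were chosen with earlier results of these data known. Named genes are the 9, Sfpq, 3 per related list by smallest p and 3 per marker list by level. Scarce markers are given as counts or sums. Gas1, Rhoa, Stab2, Cdh6, Cdh18, Ctnnb1, Bcam, Jam2, Adipor1 and Adipoq were added after their values were seen. So were the integrin and polysialyltransferase genes and the further marker genes. Of the listed genes, 3 (1 of the fusion list and 2 of the immunoglobulin list) are not analysed here. Joins used pandas 2.3.3 (Python 3.11.15) and plots matplotlib 3.10.9.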

Additional observations from a re-analysis of the deposited data

How the results depend on the processing

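Cdh13, Vcam1, Mymk, Mymx and Cdh15 kept the sign of their difference in each of the 15 alternatives, and no alternative brought any of the 9 genes past the threshold. With single libraries left out, 4 genes with small differences changed sign, and their log2 differences ran from −0.13 to 0.23 for Cdh2, from −0.38 to 0.44 for Cdh11, from −0.26 to 0.021 for Ncam1 and from −0.57 to 0.11 for Jam3. The log2 ratio differences ran from −0.73 to 0.30 for Mymk over Mymx, from −0.02 to 0.35 for Cdh15 over Cdh2, from −0.032 to 0.50 for Cdh15 over Cdh11, from −0.14 to 0.17 for Mymk over Cdh15, from −1.78 to −0.33 for Vcam1 over Itga4 and from −0.95 to −0.55 for Jam3 over Jam2. Over all genes, a pseudocount of 5 called 2 genes higher and 11 lower, a mean TPM of at least 5 called 1 and 6, and limma without trend called 1 and 1, none of them among the 9 genes; the cause was not tested. The replicate block called 0 and 0 and gave Cdh13 an adjusted p of 0.389. The deviations of libraries of the same number from their group means had correlations of −0.26, −0.25 and 0.05. Those of libraries of different number ran from −0.265 to 0.412, highest for knockout replicate 1 with control replicate 2. With 3 libraries per group such values cannot decide whether the numbers mark pairs, and no label says that they do. The median of 5 cadherins outside the 9 could not be taken at a mean TPM of at least 5, which left none. The number of libraries, 3 per genotype, limits what can be seen for Mymx and Cdh11.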
